A study of Homo sapiens with 6 samples.

Results

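The proteasome genes described here were the 49 symbols in the deposited expression lists that begin with PSMA, PSMB, PSMC, PSMD, PSME, PSMF or PSMG followed by a number, together with POMP and ADRM1, out of 22496 symbols in all. They were measured in LoVo, an established human colon adenocarcinoma cell line, in 3 libraries labelled SHARPIN knockout and 3 libraries labelled non-target, which is the control genotype. The SHARPIN protein belongs to an enzyme complex that builds head-to-tail ubiquitin chains, and the study asked which genes change when it is lost. The labels name the line, the genotype and the replicate number. The sources used here do not say how the knockout was made, whether it is 1 clone or a pool, or whether replicates were separate cultures. The p-values therefore reflect how much these 6 libraries varied, and that variation may be technical. Values are FPKM, fragments scaled by transcript length and by the mapped fragments of the library, so levels of different genes can be set side by side per length. Each library rested on an estimated 21100000 to 22500000 fragments.

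The proteasome degrades proteins that carry ubiquitin chains. Its core particle is a barrel of stacked rings, in which the outer alpha rings gate the entrance and the inner beta rings hold the cutting sites. A regulatory cap binds the chain, removes it and unfolds the substrate with a ring of ATPases. In cells exposed to interferon the catalytic beta subunits are exchanged for immunoproteasome subunits, which favour peptides suited to presentation by MHC class I. Cells that lack proteasome capacity raise most subunit genes together through the transcription factor NFE2L1.

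Some libraries stood apart, and this touches every result on proteasome genes. The library labelled knockout replicate 3 had the highest sum of FPKM, 522919, against 416852 to 431264 in the other 5. Across all tested genes, its deviations from the mean of the 6 libraries had a Spearman's rho of -0.51 with transcript length and of 0.47 with GC content. In the other 5 libraries the rho with length lay between 0.10 and 0.22. The rho with GC content was -0.01 and 0.09 in knockout replicates 1 and 2, against -0.39, -0.17 and -0.15 in non-target replicates 1, 2 and 3. Both replicate 1 libraries also deviated together: the correlation across genes between same-numbered libraries was 0.547 for replicate 1. Over genes of at least 1 FPKM in at least 3 of the 6 libraries, non-target replicates 2 and 3 were the most alike, with a Pearson correlation of 0.997, against 0.946 to 0.980 for the other pairs within a group. SHARPIN transcript stood at 7.55, 11.9 and 18.05 FPKM in knockout replicates 1, 2 and 3, against 11.9, 13.9 and 12.9 FPKM in non-target replicates 1, 2 and 3. The transcript level does not check the labels, since a small deletion can end a protein without removing its transcript, and directions here are those of the libraries as labelled. All 8 epithelial markers reached 1 FPKM in at least 1 library, with summed levels of 4792 to 9651 FPKM in knockout and 3981 to 5155 FPKM in non-target, but they did not move alike. The keratin KRT19 ranged from 589 to 891 FPKM in knockout and from 257 to 263 FPKM in non-target. The adhesion protein EPCAM averaged 165 ± 32.4 FPKM in knockout and 195 ± 2.74 FPKM in non-target (SD, n = 3 each). The intestinal transcription factor CDX1 was at 0.053 to 0.104 FPKM in knockout and at 1.23 to 1.64 FPKM in non-target. CDX2, also an intestinal transcription factor, went the other way on average, at 21.4 FPKM in knockout and 18.8 FPKM in non-target, with overlapping groups. KRT8, KRT18 and CDH1 averaged higher in knockout too, at 3203, 2936 and 40.3 FPKM, against 2197, 2053 and 32.6 FPKM in non-target. VIL1, the brush-border protein villin, was at or below 0.718 FPKM in every knockout library, against 2.098 to 2.84 FPKM in non-target. The summed level of 8 immune markers was 0.082 to 0.159 FPKM in knockout and 0.160 to 0.232 FPKM in non-target, with CD3D, CD3E and MS4A1 in none of the lists. Of 4 endothelial markers, only PECAM1 separated the groups, at 0.01 to 0.062 FPKM in knockout, against 0.533 to 0.616 FPKM in non-target. VWF and CDH5 stayed at or below 0.027 FPKM in every library, and KDR was in none of the lists. The sum of the 4 was 0.038 to 0.062 FPKM in knockout and 0.556 to 0.626 FPKM in non-target. That of 5 fibroblast markers was at most 0.413 FPKM in every library except non-target replicates 1 and 2, where it was 13.7 and 0.428 FPKM. The part of these library and marker differences in the results below was not tested.

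Of the 49 proteasome genes, 48 passed the filter on low values and were tested. The gene left out was PSMB11, the beta subunit of thymus epithelium, which was listed in 1 non-target library only, at 0.025 FPKM. PSMA8, the testis form of an alpha subunit, was in none of the 6 lists. The 48 genes ranged from low to high level. PSMB4, a structural beta subunit, was the most abundant, at 219 ± 60.3 FPKM in knockout and 169 ± 13.7 FPKM in non-target (SD, n = 3 each). PSMB9, an immunoproteasome subunit, was the least abundant, at 2.09 ± 0.307 FPKM in knockout and 1.82 ± 0.0869 FPKM in non-target. The order of the 48 levels was nearly the same in both groups, with a Spearman's rho of 0.98 across genes.

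**Figure D1:**
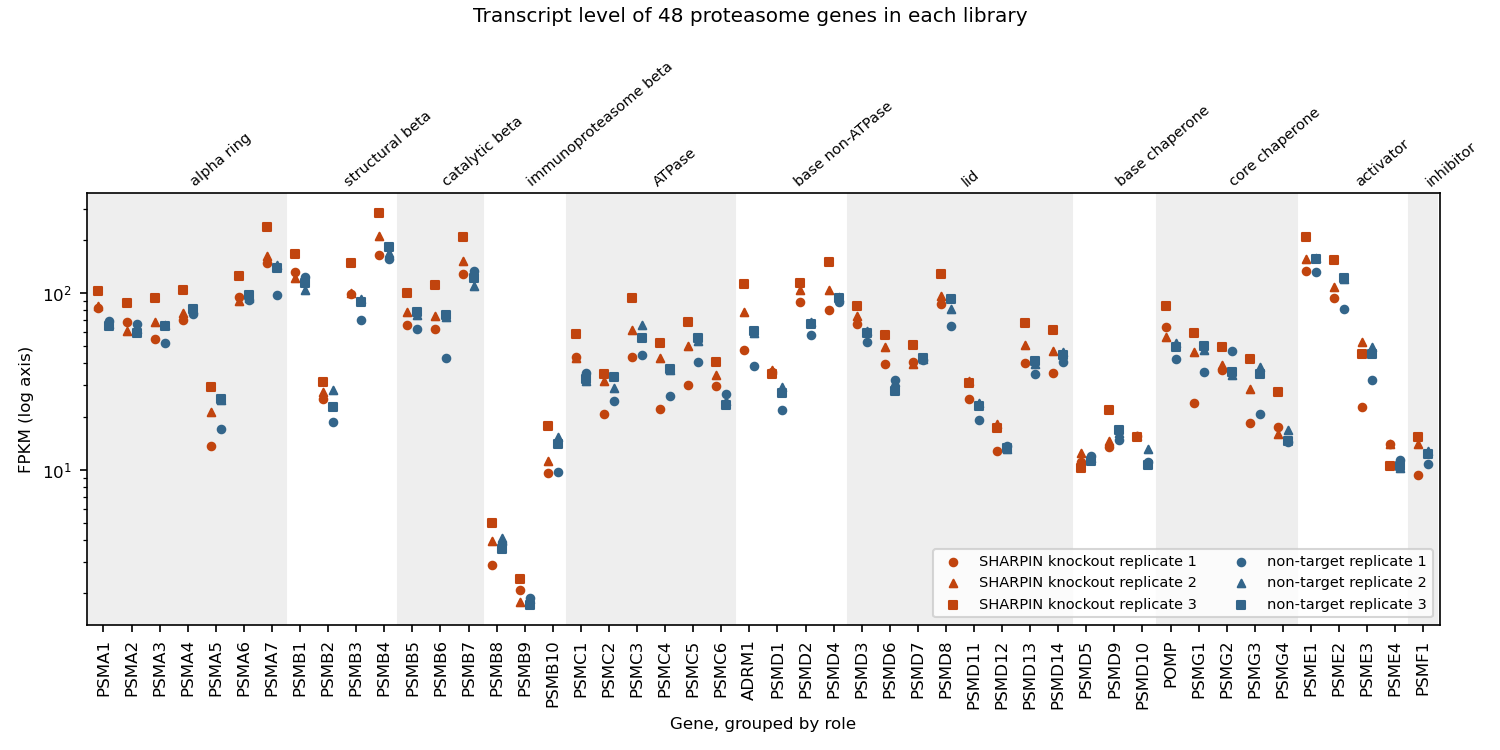
FPKM (log axis) of 48 proteasome genes, grouped by role, in each of 3 SHARPIN knockout libraries and 3 non-target libraries; each point is 1 library. PSMB8 and PSMB9 lie lowest, and knockout replicate 3 is the highest of the 6 libraries in 41 of the 48 genes.

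In knockout libraries 2 of the 48 proteasome genes rose, PSMD2 and PSMD6, and none fell (limma on log2(FPKM + 1), Benjamini-Hochberg adjusted p below 0.05). In bulk RNA, fewer cells with a transcript and less of it per cell cannot be told apart. The 2 genes made up 4.17% of the members, where 12.2% of all 13092 tested genes passed, 6.26% higher and 5.93% lower. At an unadjusted p below 0.05, 10 members passed, or 20.8%, against 25.5% of all tested genes. At the adjusted threshold the share of called proteasome genes was thus near or below that of the background. All 10 members at the unadjusted threshold were higher in knockout, while the 25.5% counts genes of both directions. A replicate block, which compares same-numbered libraries, gave 8 members that rose and none that fell, where 25.3% of all genes passed and 13.5% rose. The 8 were PSMD2, PSMD6, PSMD1, PSMC1, PSMC6, PSMA7, ADRM1 and POMP. In that fit, with 2 residual degrees of freedom, 86.4% of genes took their spread wholly from the trend over all genes. With the block the standard error of PSMD2 went from 0.17 to 0.18, and that of ADRM1 from 0.31 to 0.17. How far the pairing itself accounts for the lower p-values with the block was not tested.

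Most members nonetheless had a positive, small log2 fold change. It was above 0 for 40 of 48 genes, with a median of 0.22 over the members, against a median of 0.02 and a positive share of 52.0% over all genes tested. In 12 members every knockout library lay above every non-target library, and in none did every knockout library lie below. The non-overlapping higher members made up 25% of the list, against 16.5% of all tested genes, where 32.1% did not overlap in either direction and 15.7% were lower. They were POMP, PSMA1, PSMA7, PSMB3, PSMC1, PSMC6, PSMD1, PSMD2, PSMD3, PSMD6, PSMD10 and PSMD11. Without knockout replicate 3 the median of the members was 0.05, 28 of 48 were above 0, and no member passed. Without knockout replicate 1 the median was 0.37, 47 of 48 were above 0, and 3 members passed. With values rescaled to TPM, 35 of 48 were above 0 with a median of 0.13, against a median of -0.07 over all genes. Of 1633 genes called in TPM 41.0% were higher, against 51.3% of 1597 in FPKM. The filter was applied to the TPM values, so that fit tested 14575 genes, against 13092 in FPKM. The shares are therefore over unlike sets of genes. The summed level of the 49 genes was 2486, 2910 and 3852 FPKM in knockout replicates 1, 2 and 3. The 3 non-target libraries, in the same order, had sums of 2262, 2626 and 2633 FPKM. As a share of all FPKM in the library this was 0.585%, 0.698% and 0.737% in knockout, against 0.536%, 0.623% and 0.611% in non-target. Within each of the 3 same-numbered pairs the knockout library was higher in both sum and share. Over unpaired libraries the groups overlapped, since knockout replicate 1 lay below 2 of the non-target libraries. Neither was tested.

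**Figure D2:**
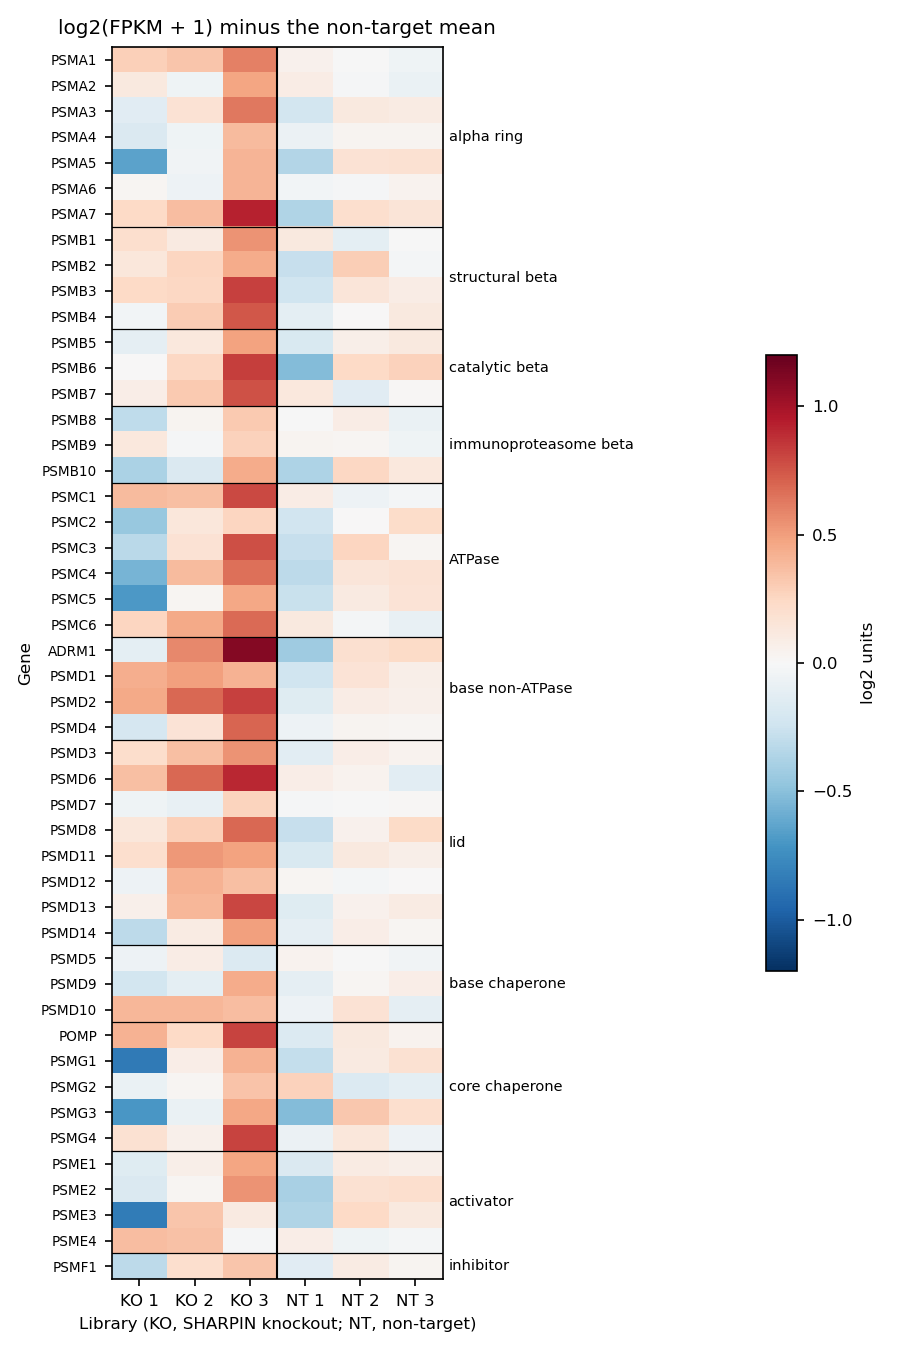
Colour gives log2(FPKM + 1) minus the non-target mean of that gene, for 48 proteasome genes (rows, by role) in 3 knockout (KO) and 3 non-target (NT) libraries. The KO 3 column is the reddest, while KO 1 and NT 1 are blue for many of the same genes, such as PSMG3, PSMG1, PSMC5 and ADRM1.

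PSMD2 encodes the large scaffold subunit of the cap base that docks ubiquitin-carrying shuttle proteins. In GRCh37 it spans bases 184016986 to 184026838 of chromosome 3, plus strand. Knockout replicates 1, 2 and 3 held 88.4, 104 and 114 FPKM of PSMD2, against 57.7, 68.2 and 66.9 FPKM in non-target. All 3 knockout libraries were above all 3 non-target libraries. PSMD2 rose by 0.66 ± 0.17 on the log2 scale, 1.58-fold (SE; limma, adjusted p = 0.0325, n = 3 per group).

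PSMD6, a subunit of the lid that stands over the base, lies on the same chromosome at 63996226 to 64009686, on the minus strand. Its level was 39.5, 49.8 and 57.9 FPKM in knockout, against 32.3, 31.5 and 27.8 FPKM in non-target. These groups did not overlap either. PSMD6 rose by 0.65 ± 0.18 on the log2 scale, 1.57-fold (SE; limma, adjusted p = 0.0465, n = 3 per group). The annotated span of PSMD6 overlaps antisense genes, and strand use in the counting is not stated, so fragments there cannot be told apart. The antisense PSMD6-AS2 stood at 1.68, 1.04 and 0.589 FPKM in knockout and at 1.18, 0.748 and 0.898 FPKM in non-target.

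Neither call was stable to leaving out a library. PSMD2 passed without knockout replicate 1 (limma, adjusted p = 0.0197), and leaving out any of the other 5 libraries gave adjusted p = 0.0661 to 0.127. PSMD6 likewise passed without knockout replicate 1 (limma, adjusted p = 0.0133), with adjusted p = 0.0842 to 0.220 for the others. The sizes held: the log2 fold change ran from 0.58 to 0.76 for PSMD2 and from 0.53 to 0.80 for PSMD6 over the 6 fits. With the trends of length and GC content removed from each library, a choice made after seeing the data, both passed (limma, adjusted p = 0.0170 for PSMD2 and 0.0121 for PSMD6).

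The sequences before the start sites of PSMD2 and PSMD6 are shown because these are the members that passed the test. They are RefSeq promoters (GRCh38.p14), read 5′ to 3′ on the strand of the gene, from 250 bases before the start up to it, at chr3:184298991-184299240 on the plus strand for PSMD2 and chr3:64023495-64023744 on the minus strand for PSMD6. Capitals mark a match, on either strand, to 1 of 4 motifs: the antioxidant response element core TGACNNNGC, bound by NFE2L1 and NFE2L2, CCAAT, the interferon-stimulated response element core (GAAA, any 2 bases, GAAA), and the gamma-activated sequence core TTCNNNGAA.
PSMD2: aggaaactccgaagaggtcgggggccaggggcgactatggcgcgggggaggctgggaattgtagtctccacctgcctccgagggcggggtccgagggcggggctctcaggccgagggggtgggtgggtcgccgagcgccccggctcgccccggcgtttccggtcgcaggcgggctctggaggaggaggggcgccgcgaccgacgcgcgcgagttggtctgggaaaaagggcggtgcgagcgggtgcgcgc
PSMD6: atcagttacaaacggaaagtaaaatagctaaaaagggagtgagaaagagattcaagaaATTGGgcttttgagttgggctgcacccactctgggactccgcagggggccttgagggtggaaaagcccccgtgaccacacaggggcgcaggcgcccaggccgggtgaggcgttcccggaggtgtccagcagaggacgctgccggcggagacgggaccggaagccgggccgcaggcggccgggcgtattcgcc
PSMD2 held none of the 4 motifs in this window, and PSMD6 held CCAAT, in reverse, beginning 192 bases before the start. Windows of 300 bases, 250 before and 50 after the start, were found for 43 of the 49 members and for 27305 symbols in all. TGACNNNGC stood in 14 member windows (32.6%), against 13.6% of all windows, and CCAAT in 20 (46.5%), against 35.7%. The interferon-stimulated core stood in 6 (14.0%), against 3.65%, and TTCNNNGAA in 4 (9.30%), against 7.88%. Motif matches may overlap each other and depend on base composition, and they are a description of the letters.

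Both members that passed belong to the regulatory cap. Its base and lid subunits had a median log2 fold change of 0.37 over 18 genes, with 2 that rose, none that fell and 16 that did not pass. Without knockout replicate 3 that median was 0.22, and 11 of the 18 remained above 0, against 16 with all libraries. Core subunits had a median of 0.22 over 17 tested genes, and 0.06 without knockout replicate 3. Chaperones, activators and the inhibitor had a median of 0.10 over 13 genes, and -0.04 without that library. The differences between these classes were not tested.

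Of the 4 non-ATPase base subunits, PSMD2 rose and 3 did not pass. PSMD1, the scaffold that pairs with PSMD2, stood at 35.6, 36.9 and 35.0 FPKM in knockout, against 21.9, 29.3 and 27.3 FPKM in non-target. Knockout libraries were level with each other and all above non-target, and the difference did not pass (log2 fold change 0.45 ± 0.17; limma, adjusted p = 0.121, and 0.0380 with the replicate block). ADRM1, a ubiquitin receptor that recruits the deubiquitinase UCHL5, stood at 47.6, 77.8 and 113 FPKM in knockout, against 38.4, 59.5 and 61.0 FPKM in non-target. Both replicate 1 libraries were the lowest of their groups, and the groups overlapped (log2 fold change 0.52 ± 0.31; limma, adjusted p = 0.333, and 0.0148 with the replicate block). ADRM1 overlaps the opposite-strand gene LAMA5, which was at 26.1, 15.05 and 10.7 FPKM in knockout and at 11.8, 10.4 and 10.7 FPKM in non-target. The ubiquitin receptor PSMD4 was at 111 ± 35.6 FPKM in knockout and 92.4 ± 3.25 FPKM in non-target (SD, n = 3 each).

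All 8 lid subunits had a log2 fold change above 0, but only PSMD6 passed. The other 7 ran from 0.04 for PSMD7 to 0.42 for PSMD13, with adjusted p-values from limma of 0.176 for PSMD11 to 0.911 for PSMD7. PSMD14, the deubiquitinase that removes the chain as the substrate enters, was at 35.2, 47.2 and 62.2 FPKM in knockout, against 40.7, 46.5 and 44.7 FPKM in non-target. The knockout values of PSMD14 spread to both sides of the non-target values. PSMD7, its partner in the lid, was at 43.7 ± 6.28 FPKM in knockout and 42.2 ± 0.460 FPKM in non-target (SD, n = 3 each).

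None of the 6 ATPase genes passed, and they fell into different patterns. PSMC1 stood at 43.6, 43.0 and 58.3 FPKM in knockout, against 35.3, 31.9 and 32.6 FPKM in non-target, with no overlap (log2 fold change 0.51 ± 0.17; limma, adjusted p = 0.0914, and 0.0147 with the replicate block). PSMC6 stood at 30.0, 34.4 and 40.5 FPKM in knockout, against 27.0, 24.4 and 23.3 FPKM in non-target, also without overlap (log2 fold change 0.46 ± 0.17; limma, adjusted p = 0.117, and 0.0303 with the block). PSMC6 passed when knockout replicate 1 was left out. The other 4 overlapped: PSMC2, PSMC3, PSMC4 and PSMC5 had log2 fold changes of -0.02, 0.21, 0.16 and -0.07. PSMC5, for example, stood at 30.2, 50.2 and 68.6 FPKM in knockout and at 40.8, 53.6 and 55.4 FPKM in non-target. Although ATPases enter the ring in equal numbers, their transcripts differed in level: in non-target libraries they averaged between 24.9 FPKM for PSMC6 and 55.2 FPKM for PSMC3.

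**Figure D3:**
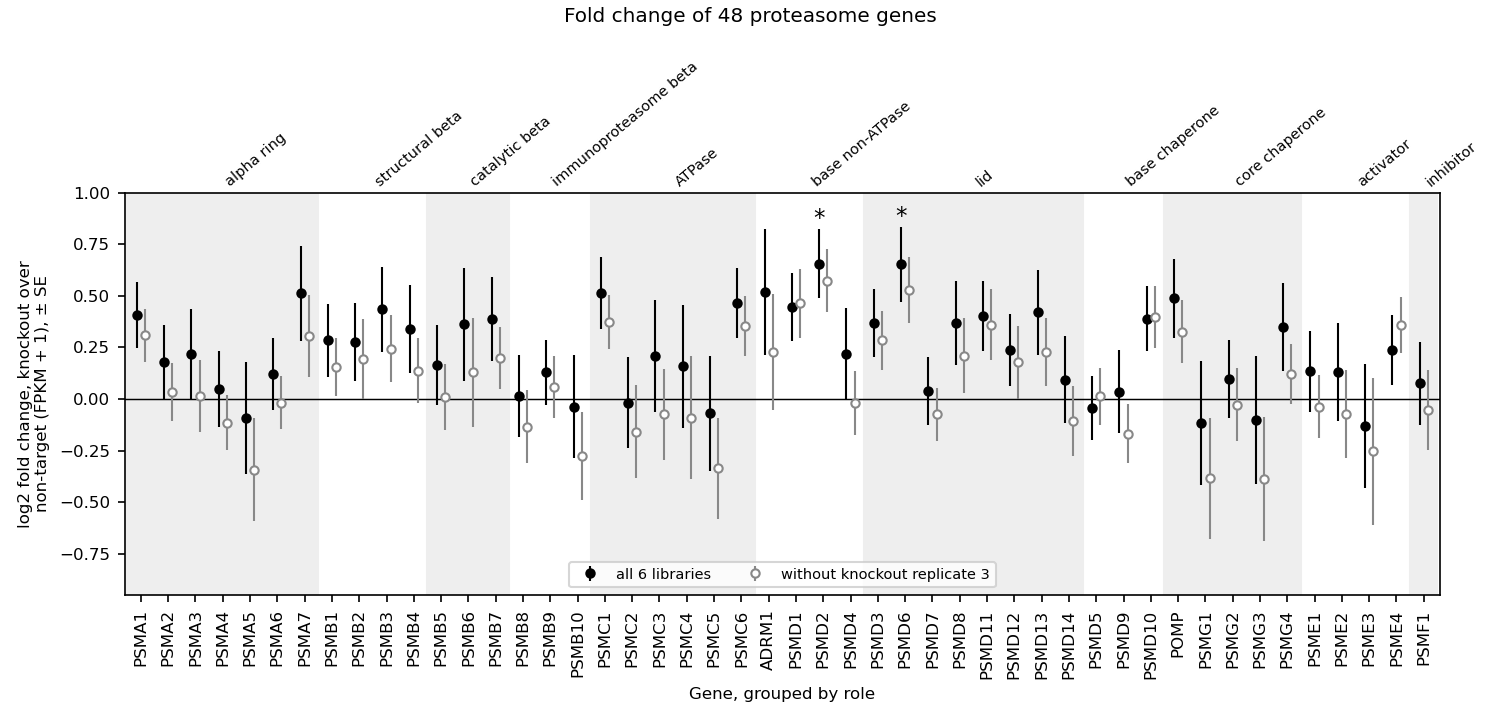
Log2 fold change of knockout over non-target on the log2(FPKM + 1) scale, with its standard error, for 48 proteasome genes by role, from all 6 libraries (filled) and without knockout replicate 3 (open). Asterisks mark PSMD2 and PSMD6, which passed with all 6 libraries (adjusted p below 0.05); no gene passed without knockout replicate 3, and the median was then 0.05, against 0.22 with all 6.

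None of the 7 listed alpha ring genes passed. PSMA1 stood at 81.9, 84.6 and 102 FPKM in knockout, against 69.4, 66.8 and 64.7 FPKM in non-target, without overlap (log2 fold change 0.41 ± 0.16; limma, adjusted p = 0.144). PSMA7, the most abundant of the ring, stood at 148, 162 and 238 FPKM in knockout, against 97.2, 144 and 139 FPKM in non-target (log2 fold change 0.51 ± 0.23; limma, adjusted p = 0.203, and 0.0210 with the replicate block). Knockout replicate 1 of PSMA7 was only just above the higher non-target libraries. PSMA5 was the least abundant, at 21.5 ± 7.93 FPKM in knockout and 22.3 ± 4.64 FPKM in non-target (SD, n = 3 each), although the subunits of a ring are used in equal numbers. PSMA2, PSMA3, PSMA4 and PSMA6 had log2 fold changes of 0.18, 0.22, 0.05 and 0.12.

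None of the structural beta subunits passed, with log2 fold changes of 0.28 for PSMB1, 0.28 for PSMB2, 0.44 for PSMB3 and 0.34 for PSMB4. PSMB3, the member with the smallest p, stood at 98.9, 99.5 and 148 FPKM in knockout, against 70.8, 92.8 and 89.0 FPKM in non-target (limma, adjusted p = 0.227). Its groups did not overlap, but the gap between the lowest knockout and the highest non-target library was small.

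The catalytic beta subunits of the ordinary proteasome were abundant and did not pass. PSMB5, which carries the chymotrypsin-like site, stood at 66.3, 78.2 and 100.3 FPKM in knockout, against 62.8, 75.1 and 77.7 FPKM in non-target (log2 fold change 0.17 ± 0.19; limma, adjusted p = 0.651). PSMB6, which carries the caspase-like site, stood at 62.2, 73.8 and 110.4 FPKM in knockout, against 42.8, 73.3 and 75.2 FPKM in non-target (0.36 ± 0.27; limma, adjusted p = 0.459). PSMB7, which carries the trypsin-like site, stood at 128, 151 and 207 FPKM in knockout, against 133, 110 and 122 FPKM in non-target (0.39 ± 0.20; limma, adjusted p = 0.274). In each of the 3 genes knockout replicate 3 was the highest library and the others overlapped.

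Their immunoproteasome counterparts were low in both groups and did not pass. PSMB8, which replaces PSMB5, stood at 2.90, 3.94 and 4.98 FPKM in knockout, against 3.79, 4.13 and 3.55 FPKM in non-target (log2 fold change 0.01 ± 0.20; limma, adjusted p = 0.974). PSMB9, which replaces PSMB6, stood at 2.08, 1.79 and 2.40 FPKM in knockout, against 1.88, 1.85 and 1.72 FPKM in non-target (0.13 ± 0.16; limma, adjusted p = 0.665). PSMB10, which replaces PSMB7, stood at 9.58, 11.3 and 17.7 FPKM in knockout, against 9.69, 15.4 and 14.0 FPKM in non-target (-0.04 ± 0.25; limma, adjusted p = 0.945). The groups overlapped in all 3. At the estimated depth PSMB9 rested on about 46 fragments per library in knockout and 40 in non-target, and in non-target its counting error alone would be 15.8%.

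A ratio of 2 genes in 1 library is not altered by a constant scaling of that library. PSMB8 was 4.37%, 5.04% and 4.97% of PSMB5 in knockout, against 6.03%, 5.50% and 4.57% in non-target, a log2 difference of -0.16 ± 0.13 (SE; two-sided exact permutation p = 0.3, n = 3 per group). PSMB9 was 3.34%, 2.43% and 2.18% of PSMB6 in knockout, against 4.39%, 2.53% and 2.28% in non-target (-0.17 ± 0.35; exact permutation p = 0.6). That ratio was lower in the knockout library of each same-numbered pair, which this test does not use. PSMB10 was 7.47%, 7.46% and 8.59% of PSMB7 in knockout, against 7.30%, 14.0% and 11.5% in non-target (-0.43 ± 0.29; exact permutation p = 0.4). Adjusted over the 3 ratios, p was 0.6 for each, and 3 libraries against 3 cannot give a p below 0.1. Transcripts of the ordinary catalytic subunits thus outnumbered those of their counterparts, per length, in every library of both groups.

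**Figure D4:**
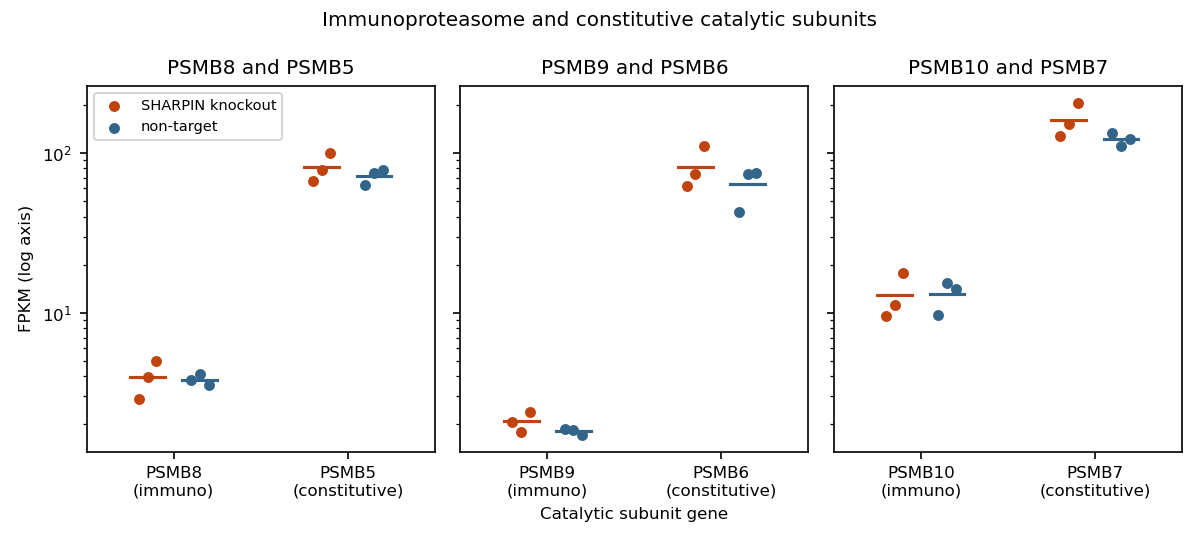
FPKM (log axis) of each immunoproteasome gene and the constitutive gene it replaces, in knockout and non-target libraries; points are libraries and lines are group means of 3. PSMB8 and PSMB9 stayed at or below 4.98 FPKM, while PSMB5 and PSMB6 stood between 42.8 and 110.4 FPKM.

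The activators spanned a wide range of levels. PSME1 and PSME2 form the interferon-inducible activator ring, and PSME1 stood at 134, 155 and 206 FPKM in knockout, against 131, 159 and 156 FPKM in non-target (log2 fold change 0.13 ± 0.20; limma, adjusted p = 0.725). PSME2 stood at 93.8, 108 and 154 FPKM in knockout, against 80.9, 120.3 and 122 FPKM in non-target (0.13 ± 0.24; limma, adjusted p = 0.786). Both were thus among the 6 most abundant members while PSMB8 and PSMB9 were the least abundant of those tested. PSME3, the nuclear activator, stood at 22.8, 52.9 and 45.1 FPKM in knockout, against 32.3, 49.3 and 45.4 FPKM in non-target (-0.13 ± 0.30; limma, adjusted p = 0.832). PSME4, a large activator that binds the core alone, stood at 14.1, 13.9 and 10.6 FPKM in knockout, against 11.3, 10.3 and 10.5 FPKM in non-target (0.24 ± 0.17; limma, adjusted p = 0.434). PSME4 was the member whose knockout replicate 3 lay furthest below the other knockout libraries. The inhibitor PSMF1 stood at 9.41, 13.9 and 15.3 FPKM in knockout, against 10.8, 12.8 and 12.3 FPKM in non-target (0.08 ± 0.20; limma, adjusted p = 0.858).

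PSMB8 and PSMB9 overlap on chromosome 6 on opposite strands (GRCh37), and TAP1, a peptide transporter gene, overlaps the annotated span of PSMB9. TAP1 stood at 2.58, 2.67 and 3.12 FPKM in knockout, against 2.07, 1.95 and 1.99 FPKM in non-target (log2 fold change 0.33 ± 0.16; limma, adjusted p = 0.223). PSME1 and PSME2 lie 4395 bases apart on chromosome 14. PSME2 overlaps RNF31 on the other strand, the catalytic partner of SHARPIN, which stood at 7.37, 12.5 and 12.2 FPKM in knockout and at 8.75, 9.34 and 9.35 FPKM in non-target. Strand use in the counting is not stated, so fragments in the shared parts of these genes cannot be assigned. Of the 49 members, 20 overlap another protein-coding gene in the annotation, and 18 have a pseudogene named after them, whose shared fragments make their levels uncertain.

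The sequences before the starts of PSMB9, PSMB10 and PSME2 are shown to set the low immunoproteasome genes beside an abundant activator gene. They are RefSeq promoters in the same window (GRCh38.p14), at chr6:32853942-32854191 on the plus strand, chr16:67936851-67937100 on the minus strand and chr14:24146611-24146860 on the minus strand, with capitals on the same 4 motifs.
PSMB9: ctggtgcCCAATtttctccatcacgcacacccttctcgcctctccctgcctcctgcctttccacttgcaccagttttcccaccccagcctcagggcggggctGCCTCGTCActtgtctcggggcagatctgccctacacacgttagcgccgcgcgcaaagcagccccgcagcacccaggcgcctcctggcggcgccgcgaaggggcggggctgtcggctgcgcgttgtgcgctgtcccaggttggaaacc
PSMB10: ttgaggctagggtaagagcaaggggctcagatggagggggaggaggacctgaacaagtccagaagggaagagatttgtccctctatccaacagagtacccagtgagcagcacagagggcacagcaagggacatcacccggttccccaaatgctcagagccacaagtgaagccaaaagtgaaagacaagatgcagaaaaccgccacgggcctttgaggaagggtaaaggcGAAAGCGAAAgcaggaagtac
PSME2: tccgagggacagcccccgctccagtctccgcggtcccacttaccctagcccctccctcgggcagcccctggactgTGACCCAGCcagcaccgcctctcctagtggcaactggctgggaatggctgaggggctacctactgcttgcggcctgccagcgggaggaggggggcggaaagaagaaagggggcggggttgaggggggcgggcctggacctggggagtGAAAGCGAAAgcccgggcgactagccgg
PSMB9 held CCAAT beginning 243 bases before the start and TGACNNNGC, in reverse, beginning 148 bases before it. The same letters of the interferon-stimulated core began 21 bases before the start in PSMB10 and 28 bases before it in PSME2, although PSMB10 averaged 12.9 FPKM in knockout and 13.03 FPKM in non-target and PSME2 averaged 119 FPKM in knockout and 108 FPKM in non-target. PSME2 also held TGACNNNGC at 175 bases before the start.

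Assembly factors did not pass. POMP, the maturation factor that closes the core from its precursor rings, stood at 63.9, 56.4 and 84.3 FPKM in knockout, against 42.5, 51.8 and 49.2 FPKM in non-target. Its groups did not overlap (log2 fold change 0.49 ± 0.19; limma, adjusted p = 0.140, and 0.0235 with the replicate block). PSMG1 and PSMG3, of the chaperone pairs that start the alpha ring, were lowest in replicate 1 of both groups. PSMG3 stood at 18.3, 28.6 and 42.2 FPKM in knockout, against 20.8, 38.0 and 34.9 FPKM in non-target. Their partners PSMG2 and PSMG4 had log2 fold changes of 0.10 and 0.35. Of the chaperones of the base, PSMD10, also called gankyrin, was even across knockout, at 15.6, 15.6 and 15.3 FPKM, against 11.05, 13.2 and 10.6 FPKM in non-target. Its groups did not overlap (log2 fold change 0.39 ± 0.16; limma, adjusted p = 0.151). PSMD5 and PSMD9 had log2 fold changes of -0.05 and 0.04.

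The library differences described above also ran through the members. Knockout replicate 3 was the highest of the 6 libraries in 41 of 48 members (85.4%), against 29.3% of all tested genes. The exceptions were PSMD1, PSMD5, PSMD10, PSMD11, PSMD12, PSME3 and PSME4. Replicate 1 was the lowest library of its group in both groups for 29 members (60.4%), against 25.0% of all tested genes. Across members, the deviation of replicate 1 from replicates 2 and 3 in knockout and that in non-target had a Spearman's rho of 0.57 (n = 48 genes that share libraries, a description).

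Proteasome transcripts were short, with a median of 1452 bases, against 3169 bases over all tested genes with a known length. Among the 3970 shortest tested genes, which had at most 2282 bases and included 34 members, the log2 level of knockout replicate 3 exceeded the mean of knockout replicates 1 and 2 by a median of 0.57 for members and 0.32 for all. Among the 3968 longest, which included 6 members, the median was 0.32 for members and -0.27 for all. PSME4, with 7250 bases, stood at -0.38, and ADRM1, with 1379 bases, at 0.88. With the trends of length and GC content removed the members' median log2 fold change was 0.22, as before, and 6 members rose, where 7.47% of all genes rose. These were PSMD2, PSMD6, PSMC6, PSMA1, POMP and PSME4.

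**Figure D5:**
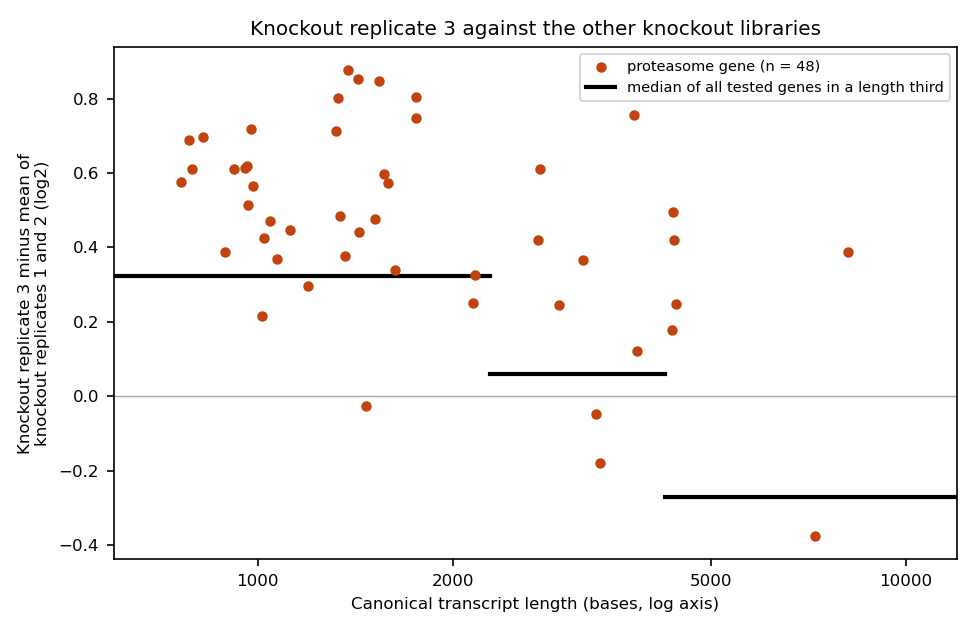
Log2 level in knockout replicate 3 minus the mean of knockout replicates 1 and 2, against canonical transcript length (log axis), for 48 proteasome genes (points), with the median of all tested genes in 3 classes of length (lines). Most proteasome genes lie above the line of their class, at a median of 0.57 among the short genes, where the line is at 0.32.

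Regulators and partners of the proteasome did not pass either. Of 30 measured cofactors, such as the shuttle protein RAD23B, the unfolding ATPase VCP and the ubiquitin gene UBB, none rose and none fell (limma), 3 had an unadjusted p below 0.05, where 25.5% of all tested genes did, and the median log2 fold change was 0.17. NFE2L1, the transcription factor that raises proteasome genes when capacity is short, stood at 46.7, 44.2 and 39.6 FPKM in knockout, against 41.0, 34.8 and 40.2 FPKM in non-target (0.17 ± 0.16; limma, adjusted p = 0.572). AKIRIN2, which brings the proteasome into the nucleus, stood at 29.1, 24.6 and 24.8 FPKM in knockout, against 22.1, 18.4 and 16.7 FPKM in non-target (0.44 ± 0.17; limma, adjusted p = 0.134). Its groups did not overlap, and with the replicate block AKIRIN2 and NPLOC4, a cofactor of VCP, rose (limma, adjusted p = 0.0428 and 0.0311), where 25.3% of all genes passed in either direction. Of 15 interferon and peptide-loading partners of the immunoproteasome, none passed (limma), 4 had an unadjusted p below 0.05, and the median was 0.15. ERAP1, a peptidase that trims peptides for MHC class I, stood at 3.82, 3.99 and 2.81 FPKM in knockout, against 5.29, 5.75 and 5.57 FPKM in non-target, with no overlap (-0.54 ± 0.18; limma, adjusted p = 0.0840). With the block ERAP1, ERAP2 and the kinase JAK2 fell (limma, adjusted p = 0.0310, 0.0167 and 0.0170). The related genes given with values were chosen after their values were seen.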

How the data were processed

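The 6 libraries of poly-A RNA carried a dUTP mark of the second strand, per the labels' protocols. Per the submitters' processing notes and the series' design text, adaptors and poor reads were removed, reads were aligned to hg19 with UCSC annotation by TopHat2 2.1.1, and the authors computed the deposited FPKM with STAR 2.7.10b. Strand use and the handling of shared fragments are not given in the sources used here. A symbol that a library does not list was taken as 0. Depth was estimated from the smallest steps of FPKM times length in genes with 1 transcript. Only 64 to 95 of 317 to 391 low values per library lay within 2% of 1 or 2 steps, so whole fragments were not recovered and no count test was run.

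limma 3.58.1 (R 4.3.3; intensity trend, robust) was fitted on log2(FPKM + 1) to 13092 genes that reached 1 FPKM in 3 or more of the 6 libraries, two-sided, with Benjamini-Hochberg adjustment over all of them and a threshold of 0.05. Fold changes on this scale understate low genes. The fit was tested on simulated data. Length, GC content and GRCh37 positions came from GENCODE canonical transcripts, found for 91.0% of tested genes and every tested member. Same-numbered libraries deviated together across genes, with correlations of 0.547, 0.309 and 0.331, so the replicate numbers were taken to pair the libraries. These values do not settle how replicates 2 and 3 pair. Knockout replicate 2 had a Pearson correlation of 0.940 with each of non-target replicates 2 and 3. For knockout replicate 3 it was 0.928 with each. That part of the replicate block therefore rests on the labels' numbers. The fit without the block was the main one. Members and lists were chosen with earlier results of these data known. Values are given in full for members past the threshold, catalytic subunits, activators, POMP, ADRM1 and the smallest p of a class; others were added after their values were seen. Alternatives were other pseudocounts, filters and scalings (TPM, median-ratio, quantile), array weights, the replicate block, leaving out libraries and, added after seeing the data, removed trends of length and GC content and each gene's own spread.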

Additional observations from a re-analysis of the deposited data

How the results depend on the processing

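Both calls, PSMD2 and PSMD6, held with pseudocounts of 0.1 and 0.5, median-ratio scaling, no intensity trend, array weights, the replicate block and the removed length and GC trends. PSMD2 alone passed, 1 gene, with no filter, with a minimum mean of 5 FPKM, in TPM and with quantile normalization. No member passed with non-target replicates 2 and 3 counted as 1 sample or on each gene's own spread (0 genes each). Leaving out 1 library gave 0 to 3 proteasome genes, and 3 without both replicate 1 libraries. The replicate block gave 8, array weights 14, the removed trends 6, and those trends with the replicate block 12, all higher in knockout, of 48 tested. Of all 13092 tested genes, 1767 were higher with the replicate block and 3202 with array weights. Of 11908 genes, 890 were higher with removed trends and 1576 with removed trends and block. Over all genes the count was 3309 with the replicate block, 5269 with array weights, 865 at a mean of at least 5 FPKM, 945 with non-target replicates 2 and 3 as 1 sample, 715 on own spread, 3023 with removed trends and block, and 911 to 1970 leaving out 1 library. Related genes past the threshold numbered 5 with the replicate block, 12 with array weights, 3 without both replicate 1 libraries, 2 with removed trends, 4 with removed trends and block, and 0 to 1 leaving out 1 library. The cause of these shifts was not tested. In the blocked fit, with 2 residual degrees of freedom, 86.4% of genes took their spread wholly from the trend.

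Among the genes given in full, directions turned for some that did not pass. The log2 fold change of PSMB8 was -0.070 in TPM, -0.0077 with median-ratio scaling and -0.089 with removed trends, with and without the block. PSMF1 was -0.0098 in TPM, PSME1 was -0.0053 and PSME2 -0.0027 with quantile normalization, PSME2 was -0.13 and PSME3 0.10 with array weights, PSME3 was 0.045 without both replicate 1 libraries, and PSMB10 was 0.055 with non-target replicates 2 and 3 as 1 sample. Leaving out 1 library gave ranges of -0.13 to 0.17 for PSMB8, -0.28 to 0.14 for PSMB10, -0.037 to 0.27 for PSME1, -0.073 to 0.28 for PSME2, -0.37 to 0.22 for PSME3 and -0.053 to 0.27 for PSMF1. The log2 ratio of PSMB9 to PSMB6 ran from -0.36 to 0.12. Fits that leave 2 libraries in a group, or count 2 as 1, have fewer residual degrees of freedom.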
